A study of Mus musculus with 3 samples.

Results

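Small nucleolar RNAs (snoRNAs) and small Cajal body RNAs (scaRNAs) left short sense fragments in 3 small RNA libraries of fully grown mouse oocytes. The members were the GENCODE M21 genes whose symbol starts with Snora, Snord or Scarna, which gave 150 of 55450 annotated genes. They comprised 42 H/ACA box genes (Snora), 99 C/D box genes (Snord) and 9 scaRNA genes (Scarna). Another 1409 genes that the annotation types as snoRNA or scaRNA carry other symbols and were outside the rule. A read counted for a member when its first 20 nt, after removal of the 3' linker, matched the annotated RNA in sense without mismatch, and a read that matched several places was divided equally among them.

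All 3 libraries came from oocytes of females stimulated by PMSG (5 IU, a gonadotropin under which ovarian follicles grow) and killed 48 h later. No strain, age or genotype is named in the labels, and how many animals were pooled is not given there. The RNA was cut from polyacrylamide gels at 19-24 nt, at 24-30 nt or at 19-30 nt, and 1 library was made per window; values below are given in that window order. No difference between windows therefore has a replicate check, no test was made, and all intervals below are 95% intervals that cover counting error only.

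SnoRNAs guide the chemical modification of ribosomal RNA in the nucleolus. C/D box RNAs carry a C box near the 5' end and a D box near the 3' end and guide 2'-O-methylation with fibrillarin, whereas H/ACA box RNAs fold into hairpins joined by an H box, end shortly after an ACA triplet and guide pseudouridylation with dyskerin. ScaRNAs do the same for spliceosomal RNAs in Cajal bodies, most vertebrate snoRNAs are cut out of introns of host genes, and some are known to be processed further into stable short RNAs, a few of which are listed as microRNAs.

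The annotated RNAs of selected genes show where the reads lay. Each is printed 5' to 3' as DNA letters of GENCODE M21 (GRCm38), and capitals mark the leading fragment, from the most frequent read start to the most frequent length at that start in the 19-30 nt library. Snord2 is shown for a fragment at the 3' end, Snord69, Snord57 and Snord33 for the 5' end, and Snord118 for a fragment in the interior.
Snord2: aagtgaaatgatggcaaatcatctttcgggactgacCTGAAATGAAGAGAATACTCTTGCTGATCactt
Snord69: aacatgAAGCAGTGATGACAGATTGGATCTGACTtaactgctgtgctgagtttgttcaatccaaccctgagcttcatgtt
Snord57: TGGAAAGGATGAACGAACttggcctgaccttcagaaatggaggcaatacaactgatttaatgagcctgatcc
Snord33: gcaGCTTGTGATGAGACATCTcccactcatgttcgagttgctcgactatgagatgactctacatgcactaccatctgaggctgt
Snord118: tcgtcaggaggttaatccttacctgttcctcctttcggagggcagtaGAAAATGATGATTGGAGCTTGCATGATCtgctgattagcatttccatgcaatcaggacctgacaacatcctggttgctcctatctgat

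In the H/ACA class, Snora47 gave a fragment at the 3' end, Snora7a at the 5' end, and Snora44 and Snora36b just past the midpoint. The scaRNAs Scarna3b and Scarna3a gave fragments past the midpoint.
Snora47: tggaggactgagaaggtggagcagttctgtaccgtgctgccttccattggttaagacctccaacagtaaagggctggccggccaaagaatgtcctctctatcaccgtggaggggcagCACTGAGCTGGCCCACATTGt
Snora7a: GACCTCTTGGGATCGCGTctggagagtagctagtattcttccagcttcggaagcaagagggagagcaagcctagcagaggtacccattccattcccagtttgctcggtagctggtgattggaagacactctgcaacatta
Snora44: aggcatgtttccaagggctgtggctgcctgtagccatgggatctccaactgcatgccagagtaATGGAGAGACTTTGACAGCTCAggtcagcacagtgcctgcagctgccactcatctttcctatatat
Snora36b: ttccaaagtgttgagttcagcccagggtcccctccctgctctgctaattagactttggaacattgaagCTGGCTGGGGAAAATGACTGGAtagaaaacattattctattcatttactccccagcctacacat
Scarna3b: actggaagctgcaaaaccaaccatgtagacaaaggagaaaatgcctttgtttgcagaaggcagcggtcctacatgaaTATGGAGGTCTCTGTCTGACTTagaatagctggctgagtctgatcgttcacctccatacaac
Scarna3a: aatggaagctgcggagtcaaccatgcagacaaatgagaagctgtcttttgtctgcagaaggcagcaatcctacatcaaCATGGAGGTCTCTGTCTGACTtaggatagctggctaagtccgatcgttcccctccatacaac
The marked end rested on 50 reads for Snord2 and 49 for Snord118, but on 6 for Snord57, 3 for Snord69, 3 for Snora44 and 1 for Snora7a. For Snord57 and Snora7a the marked fragment is 18 nt long. Within 1 nt of these starts the 24-30 nt library gave 68 and 20 reads of 23 nt or longer, which run past the marked end.

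The deposited reads numbered 764539, 1484509 and 943811 in window order, of which 663440, 1389984 and 438577 were usable. Levels are given as RPM, reads per 1000000 usable reads, and the highest level that 0 reads leave possible is 4.52, 2.16 and 6.84 RPM. Reads of 26 nt in the 19-24 and 24-30 nt libraries allowed an insert to be sized only up to 22 nt, so lengths are taken from the 36 nt reads of the 19-30 nt library. Sense exon reads of 10 oocyte marker genes summed to 26.2, 40.7 and 29.2, of which Nlrp5 alone gave 13.1, 4.51 and 27.1 and the other 9 genes (such as Gdf9) gave 13.02, 36.2 and 2.11. Those of 8 granulosa cell markers (such as Inha and Inhba), which mark the cells around the oocyte, summed to 24.0, 69.5 and 1.00. All 10 oocyte markers and 7 of 8 granulosa markers had at least 1 read, and both lists were chosen after the data were seen.

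C/D box fragments were the most abundant class in every library and were concentrated in the 24-30 nt window. They reached 197 RPM (interval 164 to 233) at 19-24 nt, 3907 RPM (3804 to 4012) at 24-30 nt and 1090 RPM (994 to 1192) at 19-30 nt, from 130, 5430 and 478 weighted reads. H/ACA fragments were rarer and showed no such concentration, at 51.0 RPM (35.3 to 71.3), 75.4 RPM (61.6 to 91.3) and 164 RPM (128 to 206). ScaRNA fragments were at 112 RPM (87.6 to 140), 66.6 RPM (53.7 to 81.6) and 85.5 RPM (60.4 to 118).

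The C/D level at 24-30 nt was 19.9 times that at 19-24 nt (16.7 to 23.8), against 1.48 times for H/ACA (0.994 to 2.25) and 0.597 times for scaRNA (0.435 to 0.821). Per read matched to any transcript the ratios were 38.2 (32.1 to 45.8), 2.84 (1.91 to 4.32) and 1.15 (0.835 to 1.58), which is more than 1.5 times the former values and turns the scaRNA direction. The scaRNA ratios rest largely on Scarna3b and Scarna3a. Reads within 1 nt of an annotated microRNA 5p start in these genes were 33 and 28.5 of the 74 scaRNA reads at 19-24 nt. At 24-30 nt they were 1 and 1 of 92.5, and Scarna6 alone gave 47. H/ACA reads made up 14.2%, 1.86% and 12.2% of all member reads. The last share was 7.77% without the most abundant gene of each class. The granulosa markers were at 36.2, 50.02 and 2.28 RPM and the oocyte markers without Nlrp5 at 19.6, 26.03 and 4.80 RPM. Both were highest at 24-30 nt and lowest at 19-30 nt. With Nlrp5 the oocyte markers were at 39.4, 29.3 and 66.6 RPM, highest at 19-30 nt and lowest at 24-30 nt. The part of either cell type in the class levels was not tested. A snoRNA difference between cell types cannot be told apart from one within oocytes in such bulk RNA.

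**Figure D1:**
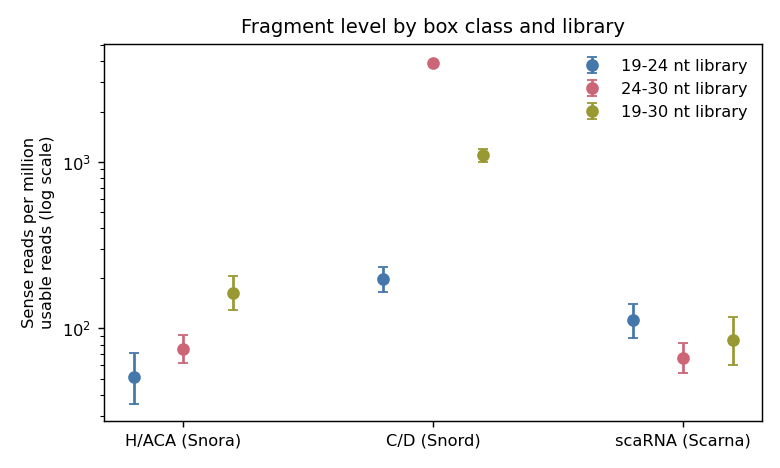
Level of each box class (horizontal axis) in each library, in RPM on a log axis, with exact 95% Poisson intervals for counting error. C/D reads at 24-30 nt stand highest, at 3907, and H/ACA reads at 19-24 nt lowest, at 51.0.

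Nearly every C/D gene gave at least a share of a read. Any matching read was found for 98 of 99 C/D genes, 35 of 42 H/ACA genes and 8 of 9 scaRNA genes, and a weighted count of at least 1 for 81, 32 and 8 genes. At 5 or more weighted reads, 72 C/D, 12 H/ACA and 6 scaRNA genes were left. Genes without a read were Snord35b among the C/D genes, Snora23, Snora2b, Snora35, both entries of Snora43, Snora52 and Snora57 among the H/ACA genes, and Scarna8. Snora16a and Snord80 each have 2 overlapping entries that share the same reads. No antisense read to any member was found in the 3 libraries, against 238, 5628 and 587 sense reads.

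The C box, D box and ACA motifs followed the class names, whereas the H box shares cannot be compared between sets of unlike RNA length. TGATGA, the C box, lay in the first 20 nt of 70 of 99 C/D genes and of 0 of 42 H/ACA genes, against 0.647% of 141365 other GENCODE transcripts. CTGA, the D box, lay in the last 20 nt of 97 of 99 C/D genes, 5 of 42 H/ACA genes and 9.18% of the other transcripts. ACA lay in the last 6 nt of 39 of 42 H/ACA genes, 5 of 99 C/D genes and 7.87% of the others. ANANNA, the H box, was searched in the middle stretch of the RNA, which grows with RNA length. It lay there in 39 of 42 H/ACA genes (median length 132.5 nt) and 44 of 99 C/D genes (84 nt). The share was 93.4% for the other transcripts, where a longer stretch holds so short a motif more readily. All motifs were searched in sense only.

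C/D fragments came from both ends of the RNA, and which side of the midpoint led depended on the library. A read was placed by the centre of its matched bases. Reads on the 5' side of the midpoint made up 66.6% (58.1 to 74.1), 30.0% (28.8 to 31.3) and 65.3% (60.9 to 69.4) of C/D reads in window order. Reads starting in the first 10 nt made up 55.5%, 25.4% and 34.7%, and those starting in the last 40 nt 29.6%, 67.6% and 33.9%. Neither end thus led at 19-30 nt. Single genes weighed on the shares on the 5' side. Without Snord2 they were 44.4% at 24-30 nt and 75.4% at 19-30 nt, and without Snord118 the 19-30 nt share was 51.5%. Among the 19 C/D genes with at least 5 reads in both the 24-30 and the 19-30 nt library, 14 had the same leading side in both. Snord17, Snord32a, Snord42a, Snord82 and Snord96a did not.

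Many single C/D genes drew nearly all reads from one end, while others gave reads from both. Reads were summed over the 3 libraries here, with 130, 5430 and 478 C/D reads in window order, so the 24-30 nt library weighs most. Of the 72 genes with at least 5 reads, 35 had most reads on the 5' side and 37 on the 3' side, and 16 had at least 90% on the 5' side and 22 at most 10%. A median of 72.2% of a gene's reads began within 1 nt of its leading start. Of the 40 genes with at least 20 reads, 7 had over 90% of reads starting in the first 10 nt and 11 had over 90% starting in the last 40 nt. In 17 of the 40, each end held at least 10% of the reads, and only in Snord118 and Snord91a did most reads start elsewhere.

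**Figure D2:**
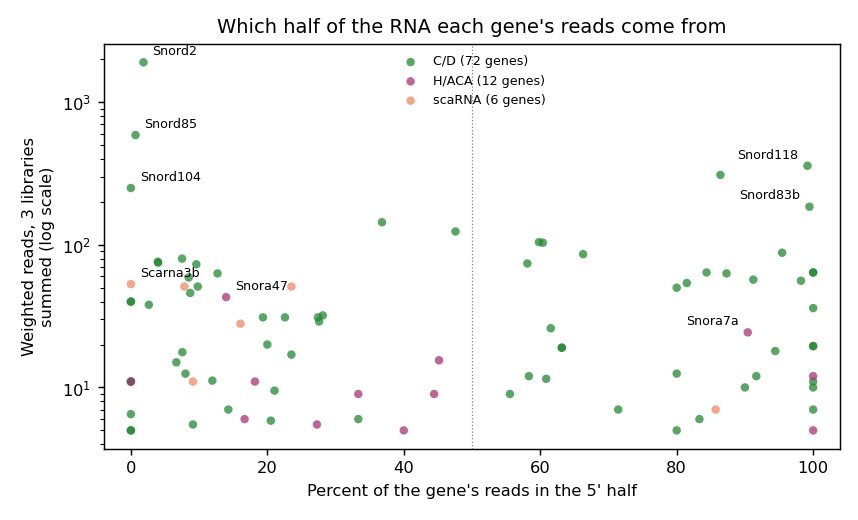
Percent of each gene's reads on the 5' side of the midpoint (horizontal axis) against its weighted reads over the 3 libraries on a log axis, for genes with at least 5 reads. C/D genes crowd both edges, with Snord2 at 1.84% and Snord83b at 99.5%, and 9 of the 12 H/ACA genes lie left of the dotted line at 50%.

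The boxes lay inside the C/D fragments. Of reads on the 5' side, 88.1%, 84.2% and 88.5% held TGATGA. For genes with that C box, reads starting in the first 10 nt most often began 6 nt before it, in 46.8%, 51.6% and 49.2% of reads, and 95.2%, 93.8% and 97.7% began 4 to 8 nt before it. At the other end, 93.3% (88.5 to 96.2) of 165 sized reads on the 3' side ended 0 to 5 nt past the D box, most often 2 nt past it (56.4%). Without Snord2 these shares were 89.1% and 31.7% of 101 reads. The printed Snord2 fragment shows this form, closing with CTGA and 2 more bases.

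Snord2, in the Eif4a2 gene that encodes a translation initiation helicase (chr16:23108953-23109021, plus strand, overlapping an exon of a host transcript), gave the most reads of any member. Its counts were 1, 1836 and 64 reads in window order, or 1.51, 1321 and 146 RPM. Reads began within 1 nt of position 37 in 97.7% of cases, and 51 of the sized leading reads of the 19-30 nt library were 29 nt long and 11 were 28 nt. Snord85 followed with 1, 551 and 36 reads, starting at position 42. Both were thus nearly absent from the 19-24 nt window. Snord104 (chr11:106500993-106501062), with 0, 243 and 7 reads from position 44, completed the 3'-end group among the leading genes.

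Fragments from the 5' end led in Snord69, Snord83b and Snord57. Snord69 in Gnl3, the gene of nucleostemin (chr14:31014287-31014366, minus strand), gave 3, 296 and 10 reads with 86.4% on the 5' side. Snord83b in an intron of the ribosomal protein gene Rpl3 gave 5, 177 and 3 reads, with 99.5% on the 5' side. Snord57 lies in Nop56, which encodes a core protein of C/D particles, and gave 2, 71 and 15 reads, of which 95.5% began with U. Snord95 in Rack1 (0, 144 and 0 reads) and Snord17 in Snx5 (0, 115 and 9 reads) gave fragments from both ends, with 36.8% and 47.6% of reads on the 5' side.

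Snord118 encodes U8, which is needed for processing of the large subunit ribosomal RNAs, and gave its reads from the interior of the RNA. It has no host gene (chr11:69073427-69073561, plus strand) and gave 14.5, 204 and 140 weighted reads, or 21.9, 147 and 319 RPM. Its level at 24-30 nt was 0.460 times that at 19-30 nt (0.369 to 0.574). Of the 19 C/D genes with at least 20 reads in all and more than 3 in the 19-30 nt library, Snord118 among them, 14 had a ratio above 1, with a median of 2.13 and a highest value of 10.95 for Snord104. Per matched read 15 were above 1. Another 21 genes had too few reads at 19-30 nt for a ratio, 9 of them 0, so this count and median leave out the genes with the fewest 19-30 nt reads. Snord95, with 0 such reads, was at least 15.1-fold higher at 24-30 nt, against a floor of 3 reads. Reads within 1 nt of position 48 made up 97.6%. In the 19-30 nt library 68 of 140 reads were 18-21 nt, only 8 were 22-27 nt, and 63 were 28-29 nt, so that the same start carried a short and a long form.

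C/D inserts of the 19-30 nt library had 2 length classes. They averaged 24.1 nt, with 35.1% at 18-20 nt, 47.5% at 27-30 nt and 0.837% at 24 nt. The short class belonged mainly to the 5' side, where 51.3% of 312 reads were 18-20 nt, or 58.0% of 174 reads without Snord118. On the 3' side 4.82% of 166 reads were that short and 79.5% were 27-30 nt, or 67.6% of 102 reads without Snord2. H/ACA inserts were shorter, with a mean of 21.2 nt and 52.2% (40.8 to 63.3) at 18-20 nt and 12.1% (6.40 to 21.6) at 27-30 nt. ScaRNA inserts averaged 21.6 nt with a peak of 37.3% at 21 nt. Scarna3b and Scarna3a gave 14.5 and 15.5 of the 37.5 scaRNA reads. Reads of microRNA genes peaked at 22 nt, with 88.9% at 20-23 nt against 17.99% of C/D reads. Inserts under 18 nt were left out, so the lower edge of the short class was not seen.

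**Figure D3:**
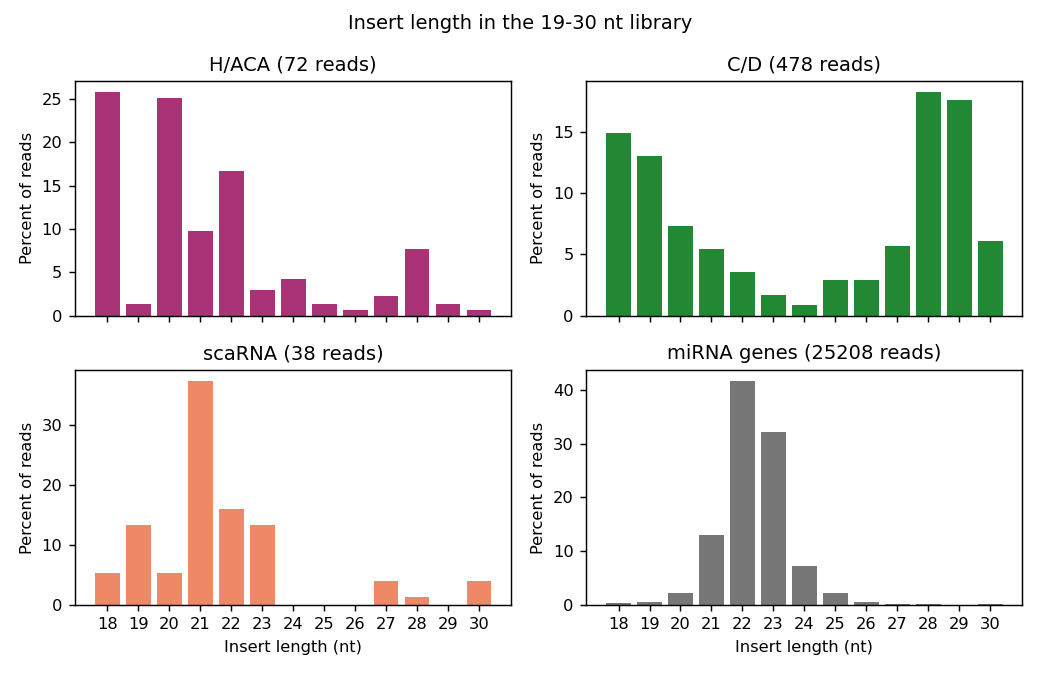
Percent of reads at each insert length (nt) in the 19-30 nt library for H/ACA, C/D, scaRNA and microRNA genes, with vertical axes scaled by panel. C/D reads form a group at 18-20 nt and a group at 27-30 nt, while microRNA reads form a single peak at 22 nt.

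H/ACA fragments came from both ends of the RNA, with a smaller group just past the midpoint. Reads on the 5' side made up 36.9% (22.8 to 53.8), 55.8% (46.3 to 65.0) and 16.7% (9.82 to 26.97) in window order. Of 12 genes with at least 5 reads over the 3 libraries summed, 3 had most reads on the 5' side and 9 on the 3' side. In the 19-30 nt library 58.2% (46.7 to 68.9) of reads ended 0 to 3 nt before the annotated 3' end. Without Snora47 this was 37.6% (23.8 to 53.7).

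**Figure D4:**
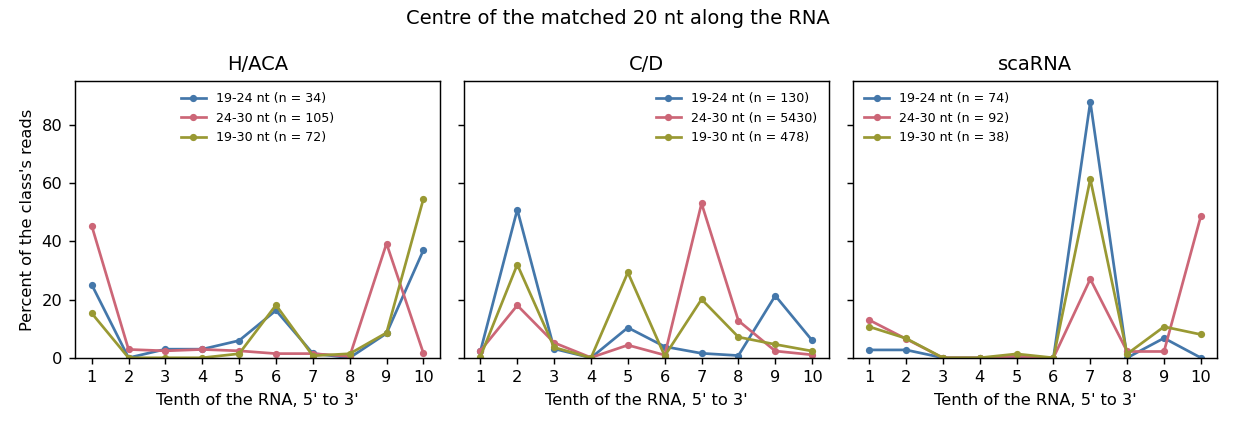
Percent of each class's reads (vertical axis) by which of 10 equal segments of the RNA holds the centre of the matched bases, counted from the 5' end, with 1 line per library and its weighted read number. H/ACA reads lie at both ends, C/D reads at 24-30 and 19-30 nt peak in segments 2, 5 and 7, those at 19-24 nt in segments 2, 5 and 9, and scaRNA reads at 19-24 nt peak in segment 7 at 87.8%.

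Snora47, in an intron of the zinc finger gene Zbed3 (chr13:95330600-95330737, plus strand), led the H/ACA class with 6, 2 and 35 reads. The level at 24-30 nt was 0.0180 times that at 19-30 nt (0.00210 to 0.0702). Its leading start was position 118, where 17 reads of the 19-30 nt library were 20 nt long and ended 1 nt before the annotated end. Snora7a in the ribosomal protein gene Rpl32 went the other way, with 1.33, 20.3 and 2.67 weighted reads, 90.4% of them on the 5' side. Snora62, or E2, a factor of pre-rRNA processing in Rpsa, gave 2, 10 and 0 reads, all of them on the 5' side. Snora3, in Rpl27a, shared 61.3% of its reads with other places and gave 1.5, 6 and 8 weighted reads. Snora24, Snora31, Snora20 and Snora81 gave 0 or 0.5 weighted reads at 19-30 nt and 4.5 to 7 at 24-30 nt. At 19-24 nt they gave 2, 4, 1 and 0.5. Their 24-30 nt levels of 3.24 to 5.04 RPM were below the 6.84 RPM that 0 reads leave possible at 19-30 nt, so no difference is shown.

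In 7 members an annotated mature microRNA lay inside the RNA, and Scarna3b, Scarna3a, Snora36b and Snord33 gave more than 2 reads there. The mature sequences are from the RefSeq table, in RNA letters with the seed (bases 2 to 8) in capitals.
mmu-miR-1843a-5p: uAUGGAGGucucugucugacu
mmu-miR-1843b-5p: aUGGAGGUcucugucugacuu
mmu-miR-664-5p: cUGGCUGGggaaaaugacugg
mmu-miR-664-3p: uAUUCAUUuacuccccagccua
mmu-miR-5121: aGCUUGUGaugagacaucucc
The seeds of miR-1843a-5p and miR-1843b-5p differ by a shift of 1 base in the start. In Scarna3a 10 weighted reads started exactly at the annotated base of miR-1843b-5p. The bases matched from there are the same in Scarna3b, so these reads were divided between both genes. None of them can be assigned to Scarna3a alone. Of the 51 weighted reads of Scarna3a, 31 started 1 base earlier, which gives them the seed of miR-1843a-5p.

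Scarna3b, in an intron of Dcaf5 (chr12:80391613-80391751, minus strand), gave 37.5, 1 and 14.5 weighted reads, and Scarna3a, in an intron of the ubiquitin ligase gene Cop1 (chr1:159340283-159340422, plus strand), gave 31.5, 4 and 15.5. Both were highest in the 19-24 nt library, at 56.5 and 47.5 RPM, unlike the C/D genes. Reads starting within 1 nt of miR-1843a-5p made up 83.0% of Scarna3b reads, and a further 15.1% started at the 3p arm. For Scarna3a 82.4% started within 1 nt of miR-1843b-5p. Of the Scarna3b and Scarna3a reads 20.8% and 21.6% matched more than 1 place. The other leading scaRNAs, Scarna6 in Atg16l1 (1, 47 and 3 reads), Scarna17 (0, 26.5 and 1.5) and Scarna2 (1, 9 and 1), were highest in the 24-30 nt library.

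Snora36b, in an intron of Rab3gap2, gave 2, 0 and 9 reads, of which 8 started within 1 nt of miR-664-5p and 3 of miR-664-3p. Snora44, in Snhg12, holds no annotated microRNA, and of its 3, 1 and 7 reads 9 started at position 64, in lengths of 20 to 24 nt. Snord33, in the ribosomal protein gene Rpl13a, gave 8, 3 and 25 reads, and 34 of the 36 started within 1 nt of miR-5121, which spans its C box. Only 4, 0 and 9 reads started exactly at the annotated base, and 20 started 1 base later, which shifts their seed. Snord33 reads were mostly 18 or 19 nt, shorter than the 21 nt of the annotated microRNA. The 24-30 to 19-30 nt ratio of Snord33, 0.0379 (0.00732 to 0.124), was the lowest of the 19 C/D genes. The microRNAs inside Snora34, Snora19 and Scarna13 had 2, 1 and 0 reads.

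Fewer snoRNA than microRNA reads started with U. Reads starting with U made up 32.2%, 23.2% and 20.3% of C/D reads in window order and 12.8%, 25.9% and 19.0% of H/ACA reads. The shares were 57.8%, 48.8% and 71.5% for microRNA genes. ScaRNA reads lay between at 35.1%, 47.6% and 38.7%, and most of them at 19-24 and 19-30 nt came from Scarna3b and Scarna3a. The leading C/D base was C at 24-30 nt (38.6%) and G at 19-30 nt (42.9%). The printed fragments of Snord2 and Snord118, the most abundant in those windows, start with these bases, and without Snord118 the U share at 19-30 nt was 27.8%.

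**Figure D5:**
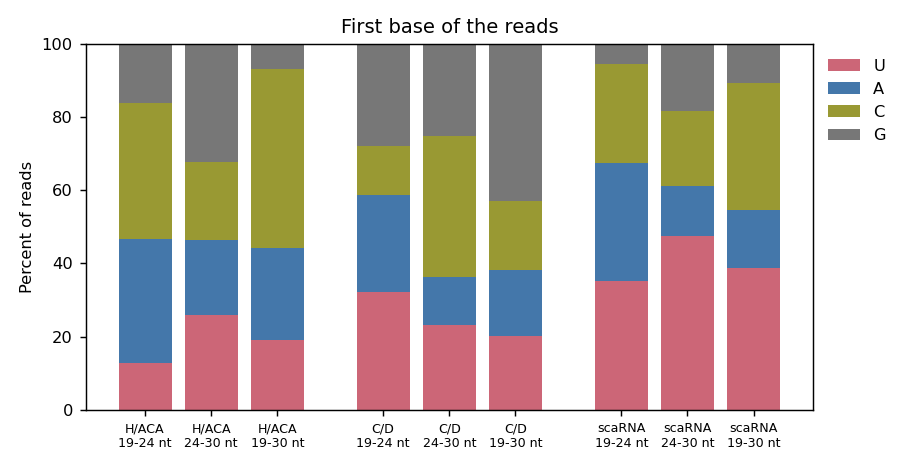
First base of the reads of each class and library, as stacked percentages of weighted reads. U makes up 12.8% to 47.6% of the bars, and C/D reads of the 19-30 nt library start with G in 42.9%.

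Grouped by role, the pre-rRNA cleavage and folding RNAs had a weighted count of at least 1 in 10 of 10 members, against 121 of all 150 genes. The median was 12.3 reads against 7. Among the genes below 1 are the 17 Snord116 copies, whose reads are divided among many places. U3 genes, which belong to this role, carry other symbols and are not in the list. Snord118 held most reads of the list. Snord14d and Snord14c (U14), in the chaperone gene Hspa8, gave 104.5 and 103.5 weighted reads that they share almost entirely. Snord22 gave 31, Snord14e 12.5, Snord13 6, Snora73a 2.67 and Snora73b 1.67. Of 19 imprinted orphan C/D genes, which have no known rRNA target, only 2 reached 1 read: Snord64 with 0, 45 and 9 reads and Snord107 with 1. Each of the 17 Snord116 copies had a weighted count of at most 0.0327, since their few reads match many copies.

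Neighbours in the host gene Rpl13a gave unlike counts over the 3 libraries summed, but similar counts at 24-30 nt. There Snord33, Snord32a, Snord35a and Snord34 gave 36, 19, 7 and 5 reads over the 3 libraries, but 3, 6, 6 and 4 at 24-30 nt. In Gas5, a non-coding host, Snord78 and Snord47 gave 18 and 10 reads. Each of the 2 entries of Snord80, which divide the same reads, gave 19.5. Of these Gas5 snoRNA reads 97.0% lay on the 5' side. Of all members 79 lay in an intron, 62 overlapped an exon of a host transcript and 9 had no host. Exons of the hosts themselves gave few reads: Gas5 exons gave 4, 2 and 0 reads, Snhg1 exons 5.01, 5.00 and 2.01 and Rpl13a exons 2, 2 and 0.333. Exon reads of 8 snoRNP protein genes, among them Dkc1 and Fbl, summed to 3.601, 6.35 and 6.71.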

How the data were processed

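The values deposited by the authors are of another (other) kind than counts: untrimmed sequence reads with base qualities, so reads were counted here. The authors' aligner, build and filters are not given in the sources used here. A 3' linker (17 nt, found as the most frequent first 17 bases) was removed with an overlap of 4 bases in 26 nt and 6 in 36 nt reads and up to 20% mismatches. Inserts under 18 nt, with uncalled bases in the first 20, or of low complexity (15 of 20 bases alike, or 19 of 2 kinds) were left out, and 308575 reads over 30 nt were set aside. The first 20 nt (whole inserts of 18 or 19 nt) were matched without mismatch to 141767 GENCODE M21 transcripts on both strands; the genome outside them was not searched. Reads matching several places were divided equally. Past base 20, 6.57% of bases at cycles 21 to 23 and 8.55% at cycles 24 to 30 differed from the RNA. Trimming and matching were tested on simulated reads. These had fewer base errors at cycles 24 to 30 than the data, so sizing under the observed errors was not tested. Shares have Wilson and levels exact Poisson intervals (95%). PCR reads are not independent molecules. Named genes were the 10 with most reads per class (5 for scaRNA), up to 5 per class with 20 or more reads mostly on the side opposite to their class, and list members with at least 10 reads. Others named were chosen after their values were seen. The members and lists were chosen with earlier results of these data known. Python 3.11.15, numpy 2.4.6, pandas 2.3.3, scipy 1.17.1, numba 0.67.0 and matplotlib 3.10.9 were used.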

Additional observations from a re-analysis of the deposited data

Results flagged for a closer look

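Member fragments also appeared among the 308575 reads of the 19-30 nt library in which no linker was found, taken as inserts over 30 nt and used in no comparison above. They numbered 135 for C/D, 14 for H/ACA and 13 for scaRNA genes, each above the 3 reads that a count of 0 allows. Snord118 (28), Snord2 (14) and Snord85 (13) gave the most. How many of them were shorter inserts with an unread linker was not tested.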

How the results depend on the processing

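No paired analysis was possible because each window has 1 library. Over 22 results and 115 alternatives, 85 values stayed within their counting interval or spread, or within 1.5 times for a gene count. Another 29 did not and 1 changed direction. Of the 85, 19 came from dropping reads that also match other RNA, which left the weighted reads unchanged and so could move none. The causes were not tested. Leaving out Snord118 and scaling per matched read were chosen after seeing the data. Per matched read the 24-30 to 19-24 nt level ratio was 38.2 for C/D, 2.84 for H/ACA and, reversed, 1.15 for scaRNA. The C/D share on the 5' side (19-24, 24-30, 19-30 nt: 66.6%, 30.0%, 65.3%) was 55.3% in the 19-24 nt library with every match counted in full and 74.3% with unique reads. It was 40.4% in the 24-30 nt library with distinct sequences, 34.8% placed by the 5' end, 27.3% without Snord118 and 44.4% without Snord2. In the 19-30 nt library it was 60.3% with distinct sequences, 51.5% without Snord118 and 75.4% without Snord2. The H/ACA share on the 5' side was 30.99% in the 19-30 nt library with distinct sequences. H/ACA genes with reads fell to 12 at a minimum of 5. The H/ACA share of member reads was 7.77% in the 19-30 nt library without the top gene of each class, and in the 24-30 nt library 5.70% with distinct sequences, 2.35% with every match in full, 1.48% with unique reads and 2.71% without the top genes. The C/D share starting with U was 24.6% and 27.8% in the 19-30 nt library with distinct sequences and without Snord118. In the 24-30 nt library it was 29.4% with distinct sequences, 24.6% with every match in full, 21.5% with unique reads and 26.9% without Snord2, and for H/ACA 34.7% in the 19-30 nt library with distinct sequences. Mean C/D length was 23.1 nt when the whole insert had to match and 23.4 nt without Snord2. Mean H/ACA length was 20.4 nt and, with distinct sequences, 22.6 nt. Depth limits the H/ACA and scaRNA values, with 33.8 and 37.5 reads in their shallowest libraries.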

Other observations

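The snoRNA and scaRNA genes that carry other symbols gave 480, 4348 and 406 weighted reads in the 19-24, 24-30 and 19-30 nt libraries. Like the C/D genes they were highest in the 24-30 nt library, at 3128 RPM against 723 and 926. Their lengths in the 19-30 nt library averaged 23.8 nt, with 20.6% at 18-20 nt and 29.8% at 27-30 nt. Fragments of snRNA genes, the targets of scaRNAs, were also highest there, at 1254 RPM against 730 and 285, and in the 19-30 nt library 56.2% of them were 18-20 nt.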
